A study of Mus musculus with 6 samples.

Results

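The mitochondrial ribosomal protein genes were taken as all genes whose symbol starts with Mrpl or Mrps followed by a digit. In mouse leukaemia cells 71 of the 22180 genes with a named probe set met this rule, 43 with large subunit names (Mrpl) and 28 with small subunit names (Mrps). RefSeq's GRCm38.p6 annotation holds 78 protein-coding genes of these names, and the other 7 were read here only by probe sets that list several genes, which name none of them. The arrays compared leukaemia cells from WT mice (3 arrays) with those from Evi1 Tg mice (3 arrays). All 6 samples were untreated MLL-AF9 leukaemias on a C57BL/6J background, and MLL-AF9, a fusion oncogene that drives acute myeloid leukaemia, was thus present in the controls too. Each sample was total RNA of 10000 whole leukaemia cells sorted for green fluorescence, so that no stem or progenitor fraction was separated. Neither the promoter that drives the Evi1 transgene nor the age of the mice was stated in the labels. The labels do not say whether a group's arrays hold RNA of different mice, and the p-values then reflect only the spread among the samples, which may be technical. The title of the series names EVI1 and metabolic reprogramming, and its single contrast, used throughout, is Evi1 Tg against WT.

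The mitochondrial ribosome translates the few messages of the mitochondrial genome, which encode core subunits of the respiratory chain and of ATP synthase. Its ribosomal RNAs come from mitochondrial DNA, whereas every ribosomal protein is encoded in the nucleus, made in the cytosol and imported. Some of its proteins have counterparts in bacterial ribosomes and others exist only in mitochondria. Acute myeloid leukaemia cells have been described as reliant on mitochondrial translation.

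Stretches just before the start sites of a few members are shown to let a reader see what these promoters look like. The sequences are RefSeq windows of GRCm38.p6, which 62 of the 71 genes had, and each stretch ends 1 base before the annotated start and was stopped short of any other gene. Of the 8 motifs searched, those found in these stretches are in capitals, namely of GABPA (an ETS factor), NRF1 and the CCAAT box, the first 2 being known regulators of nuclear genes for mitochondrial proteins.
Mrpl12, chr11:120484487-120484636, plus strand: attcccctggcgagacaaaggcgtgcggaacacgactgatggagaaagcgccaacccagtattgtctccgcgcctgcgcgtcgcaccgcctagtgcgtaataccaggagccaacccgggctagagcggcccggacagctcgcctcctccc
Mrps18a, chr17:46110854-46111003, plus strand: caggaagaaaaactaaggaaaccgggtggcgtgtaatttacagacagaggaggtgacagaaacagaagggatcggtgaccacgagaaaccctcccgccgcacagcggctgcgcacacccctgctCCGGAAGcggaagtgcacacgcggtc
Mrpl39, chr16:84735245-84735394, minus strand: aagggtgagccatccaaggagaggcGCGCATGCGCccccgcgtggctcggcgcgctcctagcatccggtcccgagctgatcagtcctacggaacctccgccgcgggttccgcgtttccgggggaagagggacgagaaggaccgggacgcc
Mrpl32, chr13:14613038-14613187, minus strand: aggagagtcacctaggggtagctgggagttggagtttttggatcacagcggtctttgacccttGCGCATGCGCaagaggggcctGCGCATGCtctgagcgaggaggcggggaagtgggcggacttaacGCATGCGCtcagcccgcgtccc
Mrps33, chr6:39810937-39811086, minus strand: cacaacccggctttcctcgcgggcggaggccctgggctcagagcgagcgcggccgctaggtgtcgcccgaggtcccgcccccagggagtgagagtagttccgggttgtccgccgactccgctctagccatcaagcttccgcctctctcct
Mrps12, chr7:28741822-28741956, minus strand: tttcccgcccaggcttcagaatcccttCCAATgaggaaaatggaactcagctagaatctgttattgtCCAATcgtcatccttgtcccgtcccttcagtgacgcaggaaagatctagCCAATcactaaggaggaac
Mrps11, chr7:78783090-78783130, plus strand: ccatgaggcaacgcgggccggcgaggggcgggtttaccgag
Mrpl12, Mrps18a and Mrpl39 had positive differences between the groups, and Mrpl32 and Mrps33 had the most negative ones among all members. Mrps12 and Mrps11 are shown because another gene starts close by on the other strand. The stretch before Mrps11 is the whole interval between its start and that of Mrpl46, a second member, which begins 42 bases away and is read the other way.

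The motif letters were counted in windows from 250 bases before to 50 bases after the start, on both strands. More than 1 window was present for 2642 genes, and a gene counted if any of its windows held the letters. The GABPA letters CCGGAAG stood in the windows of 23 of 62 members (37.1%), against 12.7% of all 16918 genes with a window. The YY1 letters AAGATGGC stood in 12 members (19.4%, against 3.65% of all genes), in 8 of them reaching past the start. The NRF1 letters GCGCATGC stood in 7 members (11.3%, against 4.07%). At least 1 of these 3 motifs was found in 35 members (56.5%, against 18.6%). The common elements were at or under their share in all genes. CCAAT stood in 38.7% of members against 41.6% of all genes, TATAAA in 8.06% against 14.3%, and the E-box letters CACGTG in 8.06% against 9.22%.

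The letters GACAAGATA and GAAGATGAG, taken for the first and the second zinc finger domain of EVI1, stood in the windows of 0 of 62 members and in 0.130% and 0.449% of all genes. No match says only that these letters are not in these windows. In the members' windows no 2 of the 8 motifs overlapped each other, whereas copies of the NRF1 motif overlapped within the palindrome seen in Mrpl39 and Mrpl32. For GC content and CpG dinucleotides, a gene with several windows entered with its highest value. The median GC content was then 58.2% over the members and 57.3% over all genes. The median number of CpG dinucleotides was 21 over the members, against 15.

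Members often lay head to head with another gene. A start on the other strand within 1000 bases was found for 23 of 62 members (37.1%) against 13.9% of all genes, at a median distance of 131 bases. Mrps12, a small subunit protein of the decoding site, starts 147 bases from Sars2, which encodes the mitochondrial seryl-tRNA synthetase. Mrpl18 starts 238 bases from Tcp1, a subunit of the cytosolic chaperonin. Mrpl47 starts 308 bases from Ndufb5, which encodes a subunit of respiratory complex I.

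**Figure D1:**
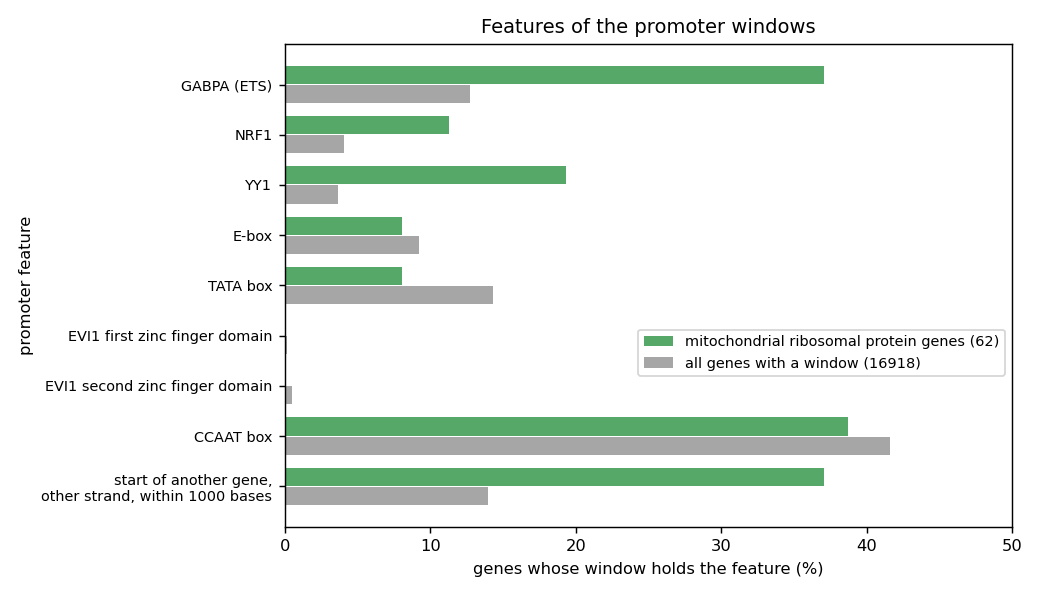
Share of genes (percent, horizontal axis) whose promoter window holds the letters of each motif or that have another gene's start on the other strand within 1000 bases, for 62 mitochondrial ribosomal protein genes (green) and all 16918 genes with a window (grey). The GABPA bar reaches 37.1% in the members and 12.7% in all genes, whereas the CCAAT bars lie at 38.7% and 41.6%.

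Across the whole series, the median intensity per array was 51.6 to 55.4 and the upper quartile 143 to 153, with WT 3 holding the lowest median and the highest quartile. Pearson correlations across genes were 0.978 to 0.992 within groups and 0.972 to 0.985 between them. A background level was set at an intensity of 75.2 (log2 6.23), the 90th percentile of 59 genes known to be silent in blood, which 9886 genes (44.6%) reached. Mecom, the gene that encodes EVI1, averaged an intensity of 37.0 in the WT group and 38.6 in the Evi1 Tg group, under that level in both (log2 difference 0.064, SE 0.0892, adjusted p = 0.890 by limma). Its probe set therefore checked neither label. By the mean over all 6 arrays, all 15 markers of myeloid leukaemia cells lay above background, as did 0 of 5 erythroid and 0 of 8 T cell markers. So did 1 of 9 B cell (Igll1), 3 of 7 megakaryocyte (Pf4, Ppbp and Gp9) and 2 of 12 stromal and endothelial markers (Pdgfrb and Pecam1). The WT and Evi1 Tg means were 6.56 and 5.95 for Igll1 and 7.04 and 6.06 for Pf4. They were 7.03 and 6.05 for Ppbp and 6.14 and 6.94 for Pdgfrb, so by group mean these 4 lay above background in a single group only. By array, Pf4 and Ppbp lay under background in WT 3 (6.14 and 5.87) and above it in Evi1 Tg 2 (6.26 and 6.69). Pdgfrb lay above it in WT 2 (6.39) as well. The myeloid marker Mpo read 6.53, 6.09 and 7.98 in WT, with WT 2 under background, and 10.22, 9.75 and 9.04 in Evi1 Tg. Its difference was 2.80 (SE 0.507, adjusted p = 0.139 by limma). The other myeloid markers had differences from -0.55 (Csf3r) to 0.85 (Meis1). The summed intensity of the megakaryocyte markers was 397 to 773 in WT and 415 to 514 in Evi1 Tg, and that of the B cell markers 452 to 533 and 409 to 432. The part of these cells in the results was not tested. In bulk samples, fewer cells of a type and less RNA per cell cannot be told apart.

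WT 3 stood apart from WT 1 and WT 2 in cell division genes. For 31 genes of mitosis and replication the deviation from each gene's own mean over the 6 arrays had a median of -0.56 (WT 1), -0.64 (WT 2) and 0.33 (WT 3), against 0.25, 0.29 and 0.34 for Evi1 Tg 1 to 3. WT 3 thus lay at the level of the Evi1 Tg arrays in these genes. The medians of the gene groups are therefore also given without it, as are the differences of several members.

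The members were expressed throughout these leukaemias. Of the 71 genes 69 lay at or above background, with Mrps36 and Mrpl27 under it. Mean log2 intensities ran from 5.57 to 9.65 (47.5 to 803 in linear intensity), and the middle 50% of the genes lay between 7.42 and 8.31. Intensities of different probe sets depend on their probes and give no order of abundance. The highest readings came from Mrps15, Mrpl24, Mrpl39, Mrpl18, Mrpl54 and Mrpl10, and the lowest from Mrps36, Mrpl27, Mrps14, Mrpl46, Mrpl14 and Mrpl48.

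No member passed the test for a difference between Evi1 Tg and WT. By limma with Benjamini-Hochberg adjustment over all genes, 0 of 71 were higher, where 0.00902% of all genes were called higher, and 0 were lower, where 0.104% were. The smallest adjusted p was 0.293. At an unadjusted p under 0.05, 5 members (7.04%) were higher (4.50% of all genes) and 0 lower (5.80% of all genes). The 3 arrays of each group did not overlap for 4 members (5.63%) that were higher (7.08% of all genes) and for 1 (1.41%) that was lower (7.47%). These shares were near those of all genes or under them. In simulated data of this design, 79% of genes changed 2-fold passed the test. The simulated arrays varied independently, with no shift shared by genes on 1 array. Changes under 2-fold were not simulated and no member's difference reached 2-fold, so this share does not cover changes of the members' size.

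The differences were small, and more lay above 0 than below. Of the 71 members, 52 had a difference above 0 (53.5% of all genes) and 19 below, with a range from -0.35 to 0.48 on the log2 scale. None exceeded 0.5 in either direction, and 37 lay within 0.1 of 0. The median difference was 0.067 for all members, 0.066 for the large subunit names (33 of 43 above 0) and 0.069 for the small subunit names (19 of 28). Over all genes the median was 0.012, and over 2460 other genes whose levels lay between the members' quartiles it was -0.0014. The median SE of a member was 0.132, larger than the median difference. Intervals at the 95% level lay inside a 2-fold change either way for 71 of 71 members, and inside a 1.5-fold change for 55 (32 Mrpl and 23 Mrps genes). Of all 22180 genes, 21102 lay inside a 2-fold and 17861 inside a 1.5-fold change, so narrow intervals were not particular to the members.

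**Figure D2:**
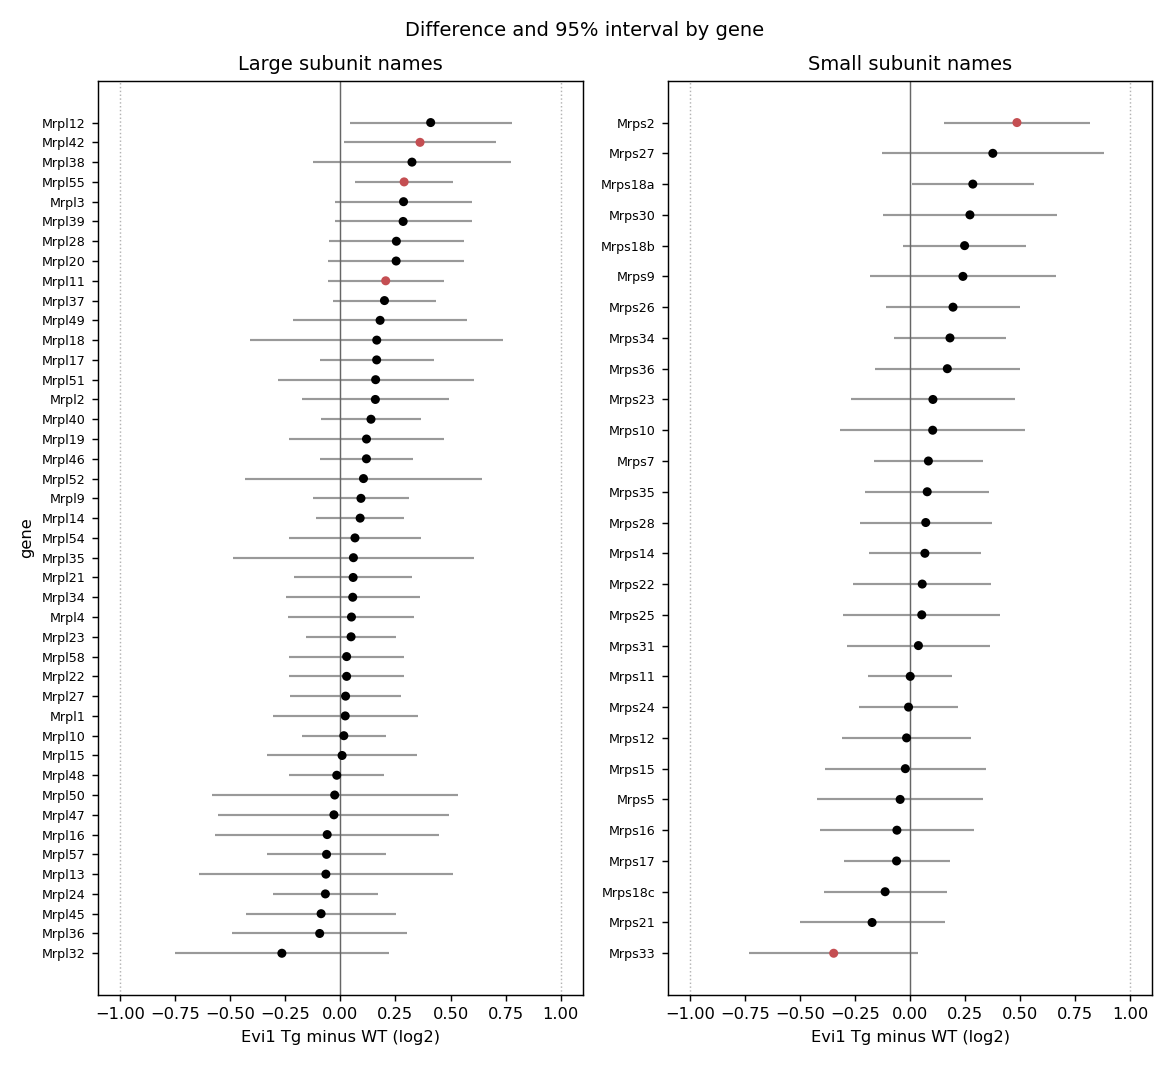
Difference between Evi1 Tg and WT (log2, horizontal axis) with its 95% interval from limma for each of the 43 Mrpl genes (left) and 28 Mrps genes (right), sorted by size; red points mark genes whose 3 arrays of one group lie apart from the 3 of the other, and dotted lines a 2-fold change. All points lie between -0.35 and 0.48, and no interval reaches a 2-fold change.

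Without WT 3, the differences were larger. WT 3 was singled out by its values, and in 52 of the 71 members it lay above both WT 1 and WT 2. Leaving it out was bound to raise the differences of these members. The counts and p-values without WT 3, here and below, therefore add no evidence of a difference. The median difference was 0.17, with 60 of 71 above 0 (51.5% of all genes). Members at an unadjusted p under 0.05 then numbered 17 higher (9.42% of all genes) and 0 lower (7.05%), and 1 member passed the adjusted threshold (1.73% of all genes called higher). That gene was Mrps2, at 0.63 with an adjusted p of 0.0385 by limma. The median of the other genes of like level was 0.045 without WT 3. Without WT 1 the median difference was 0.025, with 43 of 71 members above 0 (52.9% of all genes), and without WT 2 it was 0.054. Leaving out 1 Evi1 Tg array gave medians of 0.063 to 0.088. The size of the shift thus rested on which WT arrays entered, and WT 1 and WT 3 moved it in opposite directions.

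The arrays of the WT group bracketed those of the Evi1 Tg group. Taken over all members, the median deviation from the gene mean was -0.15, -0.078 and 0.14 in WT 1 to 3. It was 0.051 in Evi1 Tg 1, -0.00088 in Evi1 Tg 2 and 0.10 in Evi1 Tg 3. WT 3 was the highest and WT 1 the lowest of the arrays, with the Evi1 Tg arrays between WT 2 and WT 3. In genes with small subunit names the medians were -0.14, -0.11 and 0.17 in WT 1 to 3, against 0.0066 to 0.069 in Evi1 Tg. In genes with large subunit names they were -0.17, -0.063 and 0.073, against -0.0080 to 0.12, with Evi1 Tg 3 in place of WT 3 as the highest.

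WT 3 held the highest of the 6 values in 28 members (39.4%), against 36.1% of the other genes of like level and 19.3% of all genes. WT 1 held the lowest value in 39 members (54.9%), against 27.4% of the other genes of like level and 17.9% of all genes. The share for WT 3 was thus near that of the genes of like level, and the share for WT 1 was above it. After quantile normalization WT 3 was highest in 21 members (29.6%, against 24.0% of the like-level genes) and WT 1 lowest in 29 (40.8%, against 20.9%). The median deviations on that scale were -0.12, -0.069 and 0.061 in WT 1 to 3 and 0.056, 0.023 and 0.074 in Evi1 Tg 1 to 3. WT 3 then lay under Evi1 Tg 3, and its rank among the arrays depended on the scaling. In 34 of the 71 members all 3 Evi1 Tg arrays lay above both WT 1 and WT 2, a larger share than the 17.7% of all genes. The share in the genes of like level was not counted.

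**Figure D3:**
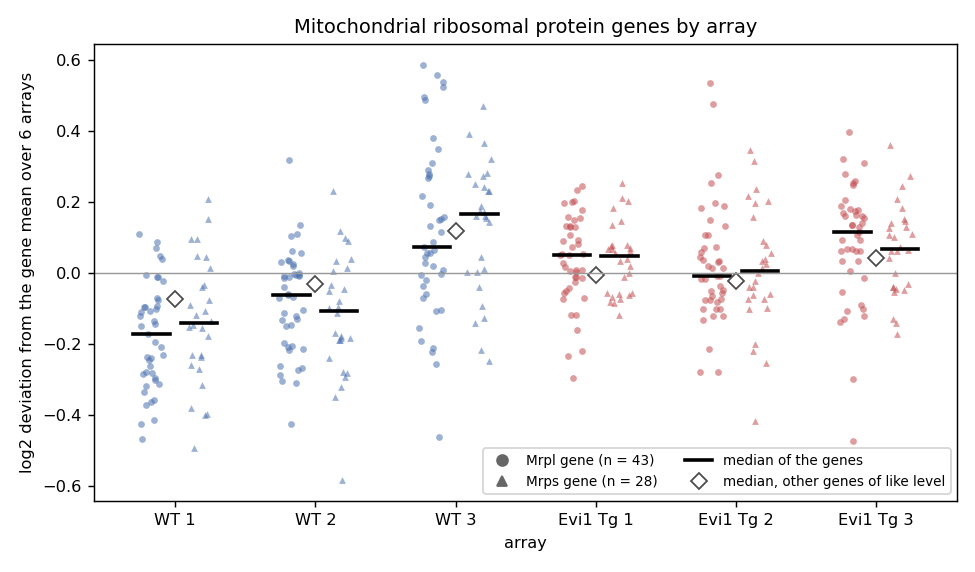
Deviation of each mitochondrial ribosomal protein gene from its own mean over the 6 arrays (log2, vertical axis) on each array, circles for 43 Mrpl and triangles for 28 Mrps genes, with medians as bars and the median of 2460 other genes of like level as diamonds. The bars are lowest in WT 1 and, for Mrps genes, highest in WT 3 at 0.17.

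The counts above 0 in the gene groups below stand beside 53.5% of all genes with all arrays and 51.5% without WT 3. The GTPase-associated stalk of the large subunit recruits translation factors. Of its 5 listed genes 4 were measured, all with a difference above 0 and a median of 0.14 (3 above 0 and a median of 0.16 without WT 3). Mrpl12, which forms the stalk and is also known to bind the mitochondrial RNA polymerase, read 7.96, 8.03 and 8.34 in the WT group and 8.32, 8.79 and 8.44 in the Evi1 Tg group. WT 3 overlapped Evi1 Tg 1, and the other WT arrays lay under all Evi1 Tg arrays. The mean intensity was 278 in WT and 370 in Evi1 Tg, a log2 difference of 0.41 (SE 0.156, 95% interval 0.042 to 0.78, unadjusted p = 0.0337, adjusted p = 0.430 by limma), and without WT 3 it was 0.53 (adjusted p = 0.136). A second probe set of Mrpl12 read 6.19, 5.93 and 6.09 on the WT arrays, all under the background level, and 6.45, 6.73 and 6.47 on the Evi1 Tg arrays. Its difference of 0.48 (SE 0.112) therefore has a WT side that is not above background.

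Mrpl11, at the base of the stalk, read 7.40, 7.71 and 7.73 in the WT group and 7.77, 7.91 and 7.78 in the Evi1 Tg group. All Evi1 Tg arrays lay above all WT arrays, by a narrow margin at WT 3, and the difference of 0.21 (SE 0.112) had an adjusted p of 0.603 by limma. Mrpl10, which anchors the stalk, had values of 8.74 to 8.92 in WT and 8.83 to 8.87 in Evi1 Tg, with a difference of 0.016. Mrpl54 lay at 0.066. The positive values of the stalk genes thus ranged from near 0 to the largest of any Mrpl gene.

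Genes around the exit tunnel and the side facing the inner membrane, where new proteins are inserted, had a median difference of 0.038 (6 of 7 measured, 4 above 0), or 0.071 without WT 3 (5 above 0). Mrpl39, a protein of mitochondria only whose promoter carries the NRF1 palindrome shown above, read 8.92, 9.09 and 9.41 on the WT arrays and 9.41, 9.39 and 9.47 on the Evi1 Tg arrays. WT 3 lay among the Evi1 Tg arrays and the other WT arrays lay under them. The difference was 0.28 (SE 0.132, adjusted p = 0.529 by limma) and without WT 3 it was 0.42 (adjusted p = 0.0799). Mrpl45, at the membrane side, had a difference of -0.088 and Mrpl24 of -0.068. These genes gave no common direction.

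The central protuberance of the mammalian mitoribosome is built around a tRNA in place of the 5S ribosomal RNA of bacteria. All 7 of its listed genes were measured, 6 had a difference above 0 and the median was 0.12, against 0.14 with 7 above 0 when WT 3 was left out. Mrpl18, among the 6 members with the widest range, read 8.60, 8.77 and 9.60 in the WT group and 9.15, 9.18 and 9.14 in the Evi1 Tg group. The Evi1 Tg arrays lay close together, and the WT arrays lay on both sides of them. The difference was 0.16 (SE 0.243, adjusted p = 0.896 by limma), 0.47 without WT 3 (adjusted p = 0.0578) and -0.028 without WT 1. Tcp1, the head-to-head neighbour of Mrpl18, read 10.62, 10.66 and 11.30 on the WT arrays and 10.94, 11.18 and 11.24 on the Evi1 Tg arrays, with WT 3 again the highest array. Mrpl38 read 7.69, 8.03 and 8.09 in the WT group and 8.19, 8.64 and 7.96 in the Evi1 Tg group, a difference of 0.32 (SE 0.191). Evi1 Tg 3 lay among its WT arrays. Mrpl58, a peptidyl-tRNA hydrolase built into the large subunit, had a difference of 0.028 (SE 0.110), with values of 8.28 to 8.59 in WT and 8.37 to 8.58 in Evi1 Tg.

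Of the large subunit proteins with bacterial counterparts 28 of 30 were measured, with a median difference of 0.057 and 22 above 0. At an unadjusted p under 0.05, 2 were higher (4.50% of all genes). Without WT 3 the median was 0.16, with 26 above 0 and 7 higher at that level (9.42% of all genes). Besides Mrpl12, the gene higher at that level with all arrays was Mrpl55 (GRCm38.p6 chr11:59202486-59206138), which read 7.97, 7.80 and 8.0 on the WT arrays and 8.27, 8.27 and 8.11 on the Evi1 Tg arrays. The groups did not overlap, and the mean intensity was 244 in WT and 298 in Evi1 Tg. Its difference of 0.29 (SE 0.0944, 95% interval 0.066 to 0.51) had an unadjusted p of 0.0181 and an adjusted p of 0.350 by limma. Mrpl3, which lies close to the peptidyl transferase centre, read 7.74, 8.0 and 8.18 in the WT group and 8.14, 8.25 and 8.40 in the Evi1 Tg group, with WT 3 above Evi1 Tg 1. The difference of Mrpl3 was 0.29 (SE 0.132, adjusted p = 0.526 by limma) and without WT 3 it was 0.39 (adjusted p = 0.175).

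Mrpl32, whose maturation by the m-AAA protease of the inner membrane is a known step of mitoribosome assembly, had the lowest difference among the large subunit names. It read 7.79, 7.47 and 8.18 on the WT arrays and 7.39, 7.40 and 7.86 on the Evi1 Tg arrays. WT 1 and WT 2 lay between Evi1 Tg 3 and the other Evi1 Tg arrays, so that the groups overlapped. The difference of -0.27 (SE 0.206) had an adjusted p of 0.758 by limma, and without WT 3 it was -0.084. Mrpl36 had a difference of -0.094 (0.074 without WT 3) and its second probe set 0.16. Mrpl35 read 8.24, 8.25 and 9.10 in the WT group and 8.54, 8.50 and 8.73 in the Evi1 Tg group. Mrpl13 read 7.20, 7.56 and 8.21 on the WT arrays and 7.68, 7.41 and 7.69 on the Evi1 Tg arrays. In both genes WT 3 was the highest array by a wide margin, and the differences of 0.059 (SE 0.232) and -0.066 (SE 0.244) became 0.34 and 0.21 without it.

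Of the large subunit proteins of mitochondria only, 15 of 19 were measured, with a median difference of 0.12 and 11 above 0 (0.14 and 12 without WT 3). Mrpl42 (chr10:95480805-95501949) read 7.28, 6.87 and 7.19 in the WT group and 7.42, 7.31 and 7.69 in the Evi1 Tg group. The groups did not overlap, though WT 1 and Evi1 Tg 2 were only narrowly apart. The mean intensity was 139 in WT and 179 in Evi1 Tg, a difference of 0.36 (SE 0.146, 95% interval 0.018 to 0.71, unadjusted p = 0.0419, adjusted p = 0.460 by limma). Mrps30, which sits in the large subunit in spite of its name, read 7.77, 7.92 and 8.40 on the WT arrays and 8.31, 8.18 and 8.41 on the Evi1 Tg arrays. WT 3 overlapped the Evi1 Tg arrays, and the difference of 0.27 (SE 0.167, adjusted p = 0.665 by limma) was 0.46 without WT 3 (adjusted p = 0.0928).

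In the small subunit, which decodes the message, the proteins with bacterial counterparts had a median difference of -0.0070 (15 of 16 measured, 7 above 0). Without WT 3 the median was 0.14, with 10 above 0. Mrps2 (chr2:28465951-28471177), a protein of the back of the small subunit, had the largest difference of any member. It read 6.81, 7.03 and 7.35 in the WT group and 7.51, 7.62 and 7.51 in the Evi1 Tg group. No arrays of the groups overlapped, with WT 3 nearest to the Evi1 Tg arrays. The mean intensity was 135 in WT and 187 in Evi1 Tg, a difference of 0.48 (SE 0.141, 95% interval 0.15 to 0.82, unadjusted p = 0.0106, adjusted p = 0.293 by limma). The exact two-sided permutation test gave p = 0.1, the smallest that 3 against 3 arrays allow. Mrps15 read 9.50, 9.47 and 10.02 on the WT arrays and 9.59, 9.61 and 9.71 on the Evi1 Tg arrays, a difference of -0.022 (SE 0.155). WT 3 was again the highest array, and without it the difference was 0.16. Mrps21 had a difference of -0.17 (SE 0.139), and Mrps17 of -0.061 with 0.079 in its second probe set.

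The small subunit proteins of mitochondria only had 9 of 10 differences above 0 and a median of 0.074, with 0 at an unadjusted p under 0.05. Without WT 3 the median was 0.20, again with 9 above 0. The exception in direction was Mrps33 (chr6:39801804-39810936), which read 8.02, 8.04 and 8.47 in the WT group and 7.93, 7.58 and 7.97 in the Evi1 Tg group. It was the only member with all Evi1 Tg arrays under all WT arrays. The mean intensity was 292 in WT and 229 in Evi1 Tg, a difference of -0.35 (SE 0.162, 95% interval -0.73 to 0.036, unadjusted p = 0.0695, adjusted p = 0.532 by limma), and without WT 3 it was -0.20. Mrps27, an RNA-binding protein of the pentatricopeptide repeat family, read 6.84, 6.52 and 7.38 on the WT arrays and 7.13, 7.45 and 7.28 on the Evi1 Tg arrays. Its difference of 0.38 (SE 0.213, adjusted p = 0.625 by limma) was 0.61 without WT 3 (adjusted p = 0.0853). WT 3 lay among the Evi1 Tg arrays, and the other WT arrays lay under them. Ptcd2, which starts 108 bases from Mrps27 on the other strand, had a difference of -0.077.

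**Figure D4:**
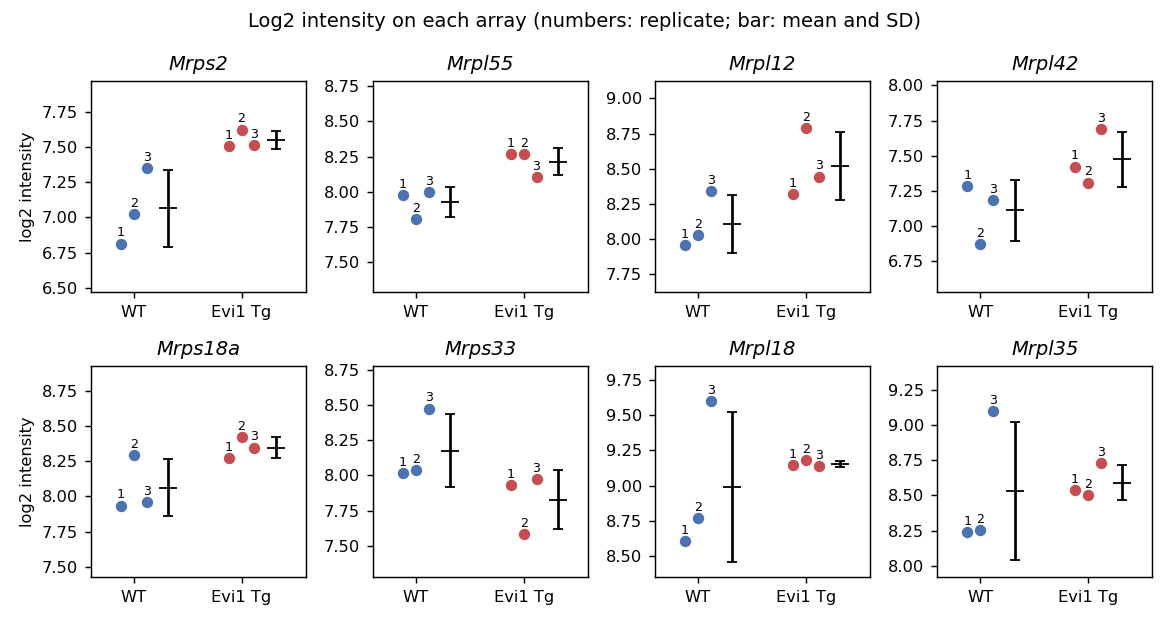
Log2 intensity (vertical axis, scaled for each gene) of 8 members on the 3 WT arrays (blue) and 3 Evi1 Tg arrays (red), numbered by replicate, with the group mean and SD as bars. Mrps2, Mrpl55 and Mrpl42 show no overlap with Evi1 Tg higher and Mrps33 none with Evi1 Tg lower, whereas in Mrpl18 and Mrpl35 WT 3 lies above every other array.

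The 3 Mrps18 genes are paralogs of 1 bacterial protein. Mrps18a is placed in the large subunit of the mammalian mitoribosome, and Mrps18b and Mrps18c are placed in the small subunit. Mrps18a read 7.93, 8.30 and 7.96 in the WT group and 8.27, 8.42 and 8.35 in the Evi1 Tg group, a difference of 0.28 (SE 0.118, unadjusted p = 0.0457, adjusted p = 0.472 by limma). Here WT 2, not WT 3, overlapped the Evi1 Tg arrays, and the difference without WT 3 was 0.23. Mrps18b read 8.65, 8.44 and 8.75 on the WT arrays and 8.99, 8.89 and 8.69 on the Evi1 Tg arrays, a difference of 0.25 (SE 0.118, adjusted p = 0.540 by limma), with 0.21 in its second probe set. Evi1 Tg 3 lay under WT 3, and the difference without WT 3 was 0.31 (adjusted p = 0.268). Mrps18c read 6.76, 6.80 and 6.98 in the WT group and 6.67, 6.59 and 6.94 in the Evi1 Tg group, a difference of -0.11 (SE 0.118, adjusted p = 0.837 by limma), with -0.20 in its second probe set, and the groups overlapped. The paralogs lay on both sides of 0, and a difference between them was not tested.

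Mrps36 is now known as a component of the 2-oxoglutarate dehydrogenase complex and not of the ribosome. It read 5.19, 5.53 and 5.73 on the WT arrays and 5.64, 5.63 and 5.70 on the Evi1 Tg arrays, all under the background level, and its difference was 0.17 (SE 0.140). Of 5 mitoribosome subunits that carry other names 3 were measured. Dap3, a GTP-binding small subunit protein also known from cell death, had a difference of -0.15 and Ptcd3 of 0.33 (SE 0.185). Gadd45gip1, a large subunit protein, lay at 0.17. The difference of Ptcd3 was 0.52 without WT 3 (adjusted p = 0.117 by limma). With all arrays none of them passed the test (smallest adjusted p 0.620 by limma).

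Second probe sets were present for 9 members. The sign of the difference was the same in 5 genes and opposite in 4, namely Mrpl36, Mrps16, Mrps17 and Mrps5. The used differences of these 4 were -0.094 to -0.045 and those of the second probe sets 0.044 to 0.16. The second probe sets of Mrps5, Mrpl47 and Mrps18c had a mean under the background level, and among the other 6 the sign was the same in 3 and opposite in 3. The 9 probe sets that cover only members without a probe set of their own had differences of -0.25 to 0.13, with a smallest unadjusted p of 0.0591 by limma.

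The genes with the widest gap between WT 3 and the mean of WT 1 and WT 2 were Mrpl18 (0.91), Mrpl35 (0.85), Mrpl13 (0.83) and Mrpl47 (0.81). In 16 of the 71 members this gap exceeded 0.5 on the log2 scale, a larger share than the 7.77% of all genes. Some members went the other way, with gaps of -0.62 in Mrpl52, -0.37 in Mrps16, -0.32 in Mrps21 and -0.28 in Mrpl54. The median gap was 0.27 over the members and 0.16 over the other genes of like level. Evi1 Tg exceeded the mean of WT 1 and WT 2 by a median of 0.17, and by more than 0.5 in 3 members. On the deposited scale WT 3 was thus further from WT 1 and WT 2 than the Evi1 Tg mean was, over the members as a whole. This sets a single array against a mean of 3, which varies less. After quantile normalization the median deviation of WT 3 was 0.061, against 0.056, 0.023 and 0.074 in Evi1 Tg 1 to 3.

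With all arrays no other gene of mitochondrial gene expression on the lists below passed the adjusted threshold. The translation factors (14 of 16 measured) had a median difference of -0.00025, with 7 above 0 and 0 at an unadjusted p under 0.05 in either direction. This median near 0 rested on the WT arrays used, at 0.15 without WT 3 (12 above 0) and -0.090 without WT 1 (3 above 0). Mrrf, the ribosome recycling factor, lay at -0.17 (SE 0.0918) and Tufm, the elongation factor that brings aminoacyl-tRNA to the ribosome, at 0.18 (SE 0.119). The assembly factors and ribosomal RNA modifiers (26 of 28) had a median of 0.050, with 19 above 0 (0.11 and 22 without WT 3). Mrm3, a methyltransferase of the large ribosomal RNA, lay at 0.30 (SE 0.178, 0.49 without WT 3), and Eral1, a chaperone of the small ribosomal RNA, at 0.21 (SE 0.132).

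The mitochondrial tRNA synthetases and related enzymes (19 of 20) had a median of 0.062, with 11 above 0. At an unadjusted p under 0.05, 2 were higher (4.50% of all genes). Without WT 3 the median was 0.20, with 13 above 0 and 5 higher at that level (9.42% of all genes). Gatc, a subunit of the enzyme that makes glutaminyl-tRNA in mitochondria, read 9.87, 9.68 and 9.88 in the WT group and 9.96, 10.30 and 10.38 in the Evi1 Tg group. The groups did not overlap, and the difference was 0.41 (SE 0.131, adjusted p = 0.347 by limma). Cars2, the cysteinyl-tRNA synthetase, lay at 0.26 (SE 0.0993, adjusted p = 0.433). Genes of mitochondrial DNA transcription and replication (12 of 13) had a median of 0.079, with 7 above 0 (0.21 and 9 without WT 3). Their examples were Mgme1, a nuclease, at 0.32 (SE 0.153) and Top1mt, a topoisomerase, at 0.37 (SE 0.227). Without WT 3 they lay at 0.50 (adjusted p = 0.0476 by limma) and 0.62 (adjusted p = 0.0855), so that Mgme1 then passed. In both genes WT 3 was the highest WT array, so leaving it out was bound to widen the difference.

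Several of the lists had WT 1 lowest and WT 3 highest. Median deviations in WT 1, WT 2 and WT 3 were -0.16, -0.080 and 0.20 for the translation factors, and -0.16, -0.072 and 0.12 for the assembly factors. For the tRNA synthetases they were -0.18, -0.11 and 0.091. In these 3 lists WT 1 was lowest and WT 3 highest of all 6 arrays. The same order was seen in the 2460 other genes of like level (-0.072, -0.031 and 0.12) and, among the WT arrays, in all genes above background (-0.045, -0.028 and 0.081). WT 2 was lowest in the cell division genes and in the subunits under other names. The nucleolar list, which holds genes of cytosolic ribosome production and Myc, had -0.30, -0.20 and 0.11, with Evi1 Tg arrays at 0.067 to 0.16 and a median difference of 0.22 (18 of 19 above 0, 5 at an unadjusted p under 0.05). Of all genes 4.50% were higher at that level. Without WT 3 the median of the nucleolar list was 0.37, with 15 higher at an unadjusted p under 0.05 (9.42% of all genes). Then 3 passed the adjusted threshold (1.73% of all genes). WT 3 was the highest WT array in this list too, so these counts add no evidence.

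Cell division genes moved by array more widely than the members did. Their summed intensity was 14892 to 29069 in WT, with WT 3 the highest, and 26877 to 29002 in Evi1 Tg. The summed intensity of the members was 16763 to 20644 in WT, again with WT 3 the highest, and 19124 to 19618 in Evi1 Tg. The median difference of the cell division genes was 0.60, with 31 of 31 above 0. Of them 13 were higher at an unadjusted p under 0.05 (4.50% of all genes) and 0 passed the adjusted threshold by limma. Without WT 3 the median was 0.91, with 31 higher at an unadjusted p under 0.05 (9.42% of all genes). Then 27 passed the adjusted threshold (1.73% of all genes). WT 3 was set apart by its level in these same genes. Leaving it out was thus bound to widen their difference, and these counts add no evidence. Whether cell division had a part in the values of the members was not tested.

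**Figure D5:**
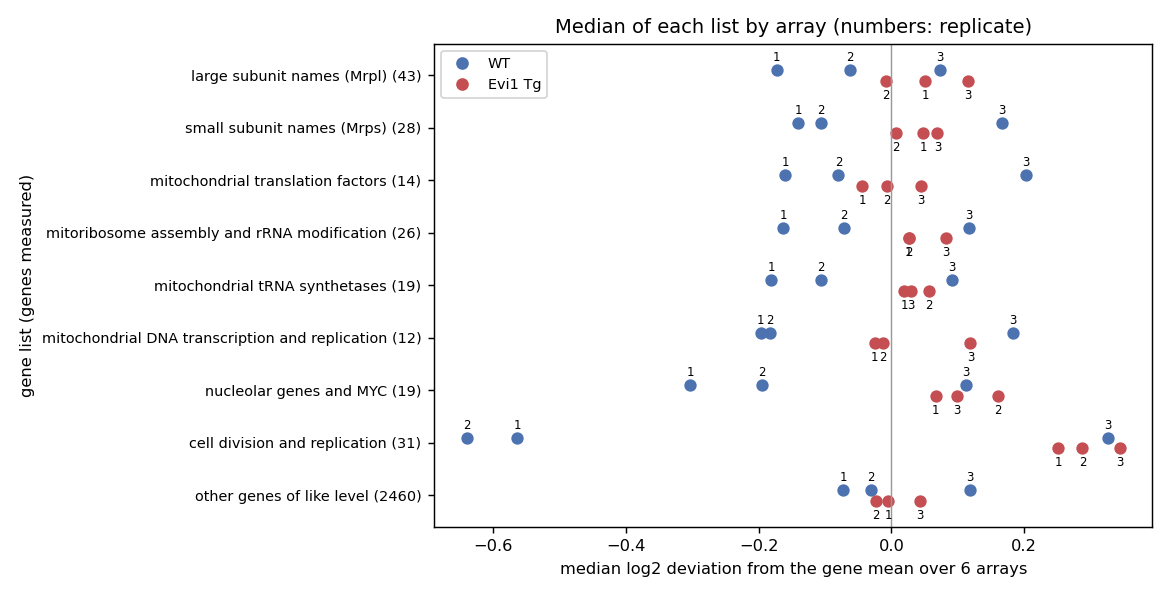
Median deviation from the gene mean over 6 arrays (log2, horizontal axis) for the Mrpl and Mrps genes and 7 other gene lists (vertical axis, number of measured genes in brackets), with 1 point for each WT (blue) and Evi1 Tg (red) array, numbered by replicate. WT 1 and WT 2 lie left of all Evi1 Tg arrays and WT 3 right of 0 in every list shown, from 0.073 in the Mrpl genes to 0.33 in cell division.

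Median differences of members with and without the promoter motifs are a description, with no test. Members with the GABPA letters had a median difference of 0.056 and those without 0.083. With and without the YY1 letters the medians were 0.071 and 0.063, and with and without those of NRF1 0.093 and 0.059. Members with CCAAT had a median of 0.17 and those without 0.056. The 5 members with the E-box letters had 0.16 and those without 0.059, and the 5 with TATAAA had -0.016 and those without 0.083. The sequences shown above give single cases, since the NRF1 letters stood before both Mrpl39 (0.28) and Mrpl32 (-0.27).

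The 23 head-to-head neighbours had a median difference of 0.070, with 18 above 0 (53.5% of all genes), and 15 had the same sign as their member. Wide gaps within a pair occurred. Mrpl51 lay at 0.16 and its neighbour Ncapd2, a condensin subunit whose start is 614 bases away, at 0.71. Mrpl57 lay at -0.063 and Ska3, a spindle protein, at 0.58. Mrpl46 and Mrps11, which share the 41 bases between their starts shown above, lay at 0.12 and 0.00068.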

How the data were processed

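Total RNA of 6 samples was made into biotinylated cDNA (GeneChip WT PLUS kit), per the labels. The authors deposited probe set intensity values, whose range shows a linear scale. How they were background corrected and normalized is not given in the labels, so the scaling between arrays is unknown. The deposited intensity values were taken to log2 without a pseudocount or a filter. Of 34351 probe sets 23521 had 1 symbol in the platform annotation, 1814 several and 9016 none, and only the first were named. For each gene the probe set with the highest mean of the 6 arrays was used, which gave 22180 genes. Evi1 Tg was compared with WT (n = 3 each) with limma 3.58.1 (lmFit, eBayes; R 4.3.3). P-values were adjusted over all genes by the Benjamini-Hochberg method and called under 0.05. Each difference is the Evi1 Tg mean less the WT mean, with its moderated SE.

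The members, gene lists and tests were chosen with earlier results of these data known. Members were named by level (6 highest and 6 lowest), smallest p (8 per direction), separate groups with an unadjusted p under 0.05, range (top 6), the Mrps18 paralogs and 4 genes of special role (Mrpl12, Mrpl58, Mrps30 and Mrps36). Up to 2 genes per other list were named by smallest p. Mrpl11, Mrpl47, Mrpl52, Mrps5, Mrps11, Mrps12, Mrps16, Gadd45gip1 and the neighbours Tcp1, Sars2, Ndufb5, Ptcd2, Ncapd2 and Ska3, with Mrpl51 and Mrpl57, were named after their values were seen. Tested on simulated data with 200 changed genes among 22180, the comparison recovered 79% of 2-fold and 99% of 4-fold changes and called 14 unchanged genes. Changes under 2-fold were not simulated. The number of arrays limits the precision. Promoter windows came from RefSeq (GRCm38.p6). The alternatives are given under the dependence on processing.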

Additional observations from a re-analysis of the deposited data

How the results depend on the processing

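The 16 alternatives for the members were other scalings, filters, weights, probe set choices, a replicate block and leaving out each array. The count of members past the adjusted threshold was 0 in both directions under each, except 1 higher without WT 3 (leave-one-out range 0 to 1 higher, 0 to 0 lower). Members higher at an unadjusted p under 0.05 numbered 3 with median centring (3.57% of all genes). They numbered 3 with dim genes left out (5.93% of the genes kept) and 2 with trend and robust settings (4.33%). Array weights gave 11 (7.77%), and Evi1 Tg 1 and 2 averaged gave 3 (2.75%). When 1 array was left out they numbered 2 to 17, where 585 to 2089 of the 22180 genes were higher. Members lower at that level numbered 1 with quantile normalization (5.89% of all genes) and 2 with the replicate block (6%). In each leave-one-out fit 0 were lower, where 866 to 1564 of the 22180 genes were. The median difference stayed above 0 in each fit (0.025 without WT 1 to 0.17 without WT 3), as did that of the Mrpl genes (0.025 to 0.15) and of the Mrps genes (0.020 to 0.18). It was 0.080 with quantile normalization, 0.054 with median centring and 0.13 with array weights.

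Across the groups, deviations of arrays with the same replicate number correlated at 0.19, -0.18 and 0.061, and those with different numbers at -0.23 to 0.12. Deviations from a group's own mean are not independent, so these values cannot settle whether the numbers pair the arrays. With the replicate block 7 members were higher (5.09% of all genes) and 2 lower (6% of all genes) at an unadjusted p under 0.05. None passed the adjusted threshold.

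Of the named members' values, 482 kept their direction and side of the threshold, 27 changed sign and 1 newly passed (Mrps2 without WT 3). Differences changed sign with array weights in Mrps15 (0.053) and Mrpl13 (0.12), with Evi1 Tg 1 and 2 averaged in Mrpl48 (0.012), with the mean over probe sets in Mrps17 (0.0090) and Mrpl36 (0.034), and with the widest-spread probe set in Mrps17 (0.079). When 1 array was left out, differences crossed 0 in Mrpl10 (-0.029 to 0.056), Mrpl13 (-0.30 to 0.21), Mrpl18 (-0.028 to 0.47), Mrpl27 (-0.051 to 0.084), Mrpl35 (-0.086 to 0.34), Mrpl36 (-0.24 to 0.074) and Mrpl45 (-0.20 to 0.030). They also did in Mrpl48 (-0.074 to 0.040), Mrpl54 (-0.035 to 0.13), Mrpl58 (-0.062 to 0.093), Mrps14 (-0.0072 to 0.16), Mrps15 (-0.12 to 0.16) and Mrps17 (-0.14 to 0.0092). The cause was not tested. Leaving out arrays was extended to the role groups and other gene lists after seeing the data. A signal near background compresses a difference, which touches Mrps36 and Mrpl27, and a shift shared by most genes would be hidden by normalization.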
